A study of Mus musculus with 14 samples.

Results

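The granule cell lineage genes are 33 genes of the cerebellar rhombic lip, of the granule cell progenitors it gives rise to, and of the post-mitotic granule neurons, with close relatives such as unipolar brush cells. They were taken by symbol from a list of names that was drawn up with earlier results of these data known, though its rule uses no measured value, and all 33 are among the 24100 genes of the count table. The study counted RNA in cerebella of mice at postnatal day 21 that were wild type (WT) or knockout (KO) for Astn2, a membrane protein of neurons. Both genotypes carried the transgene Tg(Pcp2-L10a-EGFP), in which the Purkinje cell promoter Pcp2 drives ribosomal protein L10a fused to EGFP. In translating ribosome affinity purification (TRAP), antibodies to GFP pull down the tagged ribosomes and the RNA on them is sequenced. A part of each lysate kept before the pull-down is the input and stands for whole cerebellum. The 14 libraries are 4 input WT (1 female, 3 male), 3 input KO (2 female, 1 male), 3 TRAP WT (1 female, 2 male) and 4 TRAP KO (2 female, 2 male). The series states that WT and KO mice were littermates, but the labels do not say that each library is a separate animal, so p-values measure the spread between libraries, which may be partly technical.

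Granule neurons are the small glutamatergic neurons of the cerebellar cortex and the most numerous neurons of the brain. Their progenitors leave the rhombic lip under control of Atoh1, divide in the external granular layer in response to Sonic hedgehog secreted by Purkinje cells, and then migrate inward past the Purkinje cells. Their axons, the parallel fibres, form synapses on Purkinje cell dendrites. Purification against input thus sets a fraction enriched for Purkinje cell ribosomes against a tissue rich in granule neurons.

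The smallest library held 18.8 M and the largest 54.2 M counts (M, 1e6). CPM stands for counts per 1e6 counts after TMM scaling over the 14 libraries, and values are listed in the order of the replicate numbers. The targeted gene matched the genotype labels: Astn2 had a log2 fold change, KO over WT, of -6.70 within input and -6.39 within TRAP libraries. All 11 Purkinje cell markers of a fixed list were higher in TRAP than in input in both genotypes, as their label states. The labels name no batch. In 2 TRAP libraries, TRAP WT replicate 3 and TRAP KO replicate 4, most granule cell lineage genes were below the mean of the rest of their group. The oligodendrocyte genes were low in both libraries, summing to 767 CPM in TRAP WT replicate 3, against 1408 and 1554 CPM. In TRAP KO replicate 4 they summed to 751 CPM, against 1215 to 1740 CPM. Other lists were not all low by their sums in TRAP WT replicate 3, and sums weigh the abundant genes most. Microglia genes summed to 5.60 CPM there, against 5.88 and 5.57 CPM, and endothelial genes to 7.55 CPM, against 6.84 and 8.05 CPM. Genes of Bergmann glia and astrocytes summed to 341 CPM, against 422 and 348 CPM, and meningeal genes to 20.0 CPM, against 12.6 and 11.6 CPM. Interneuron genes summed to 251 CPM, against 335 and 264 CPM. By the median gene, microglia were lower there, at 0.767 CPM, against 1.50 and 1.52 CPM. So were Bergmann glia and astrocytes (21.7 CPM, against 42.0 and 35.7 CPM), interneurons (6.03 CPM, against 11.35 and 10.27 CPM) and meninges (1.33 CPM, against 1.61 and 1.77 CPM). The endothelial median was higher, at 1.39 CPM, against 1.03 and 0.732 CPM. The sums of the Bergmann glia, microglia and endothelial genes were also lowest of TRAP KO in replicate 4. The main counts of TRAP against input and of genotype in TRAP are also given without this pair of libraries, a choice made after the values were seen.

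The defining genes of the list were among the well-detected genes of whole cerebellum. In input WT, Neurod1 was at 672, 693, 644 and 684 CPM, Fat2 at 514, 504, 483 and 495 CPM, and Etv1 at 388, 385, 370 and 413 CPM. The libraries of the group lay close together for these 3 genes, and the median coefficient of variation over the list was 7.14% in input WT. It was 7.81% in input KO, 31.4% in TRAP WT and 25.3% in TRAP KO, so the same genes were measured less precisely after purification. Summed over the members, the input level was 9671 ± 350 CPM for WT (SD, n = 4), close to the 9903 ± 268 CPM of the KO (SD, n = 3). After purification the sum was 2351 ± 690 CPM for WT (SD, n = 3), and that of the KO was 2561 ± 620 CPM (SD, n = 4).

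Levels were compared between genes as CPM per kb of the longest annotated transcript. In input WT the calcium-binding protein gene Calb2 (calretinin) was highest, at 485 ± 37.2 CPM per kb (SD, n = 4), followed by Chn2, which encodes a Rac-inactivating chimaerin, at 307 ± 14.2 CPM per kb. Neurod1 (247 ± 7.90 CPM per kb), Slc17a7 (240 ± 2.92 CPM per kb) and Rbfox3 (230 ± 20.6 CPM per kb) came next and did not differ from each other beyond their spread. Below them, Grm4 at 167 CPM per kb and Zic1 at 161 CPM per kb were again not separated beyond their spread. Etv1 stood at 59.2 and Fat2 at 34.3 CPM per kb, since the Fat2 transcript is long. The lowest detected members were Meis2 at 0.757 and Lmx1a at 0.324 CPM per kb.

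Atoh1, the proneural factor of dividing granule progenitors, had 0 counts in all 4 input WT and all 3 TRAP WT libraries. It had 2, 1 and 5 counts in input KO and 1 count in 1 TRAP KO library. A count of 0 allows up to 3 counts, which is 0.0438 to 0.205 CPM depending on the library and covers counting error only. Atoh1 was therefore at or near the floor in every library and entered no test. The other 32 members passed the filter on low counts in every comparison.

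**Figure D1:**
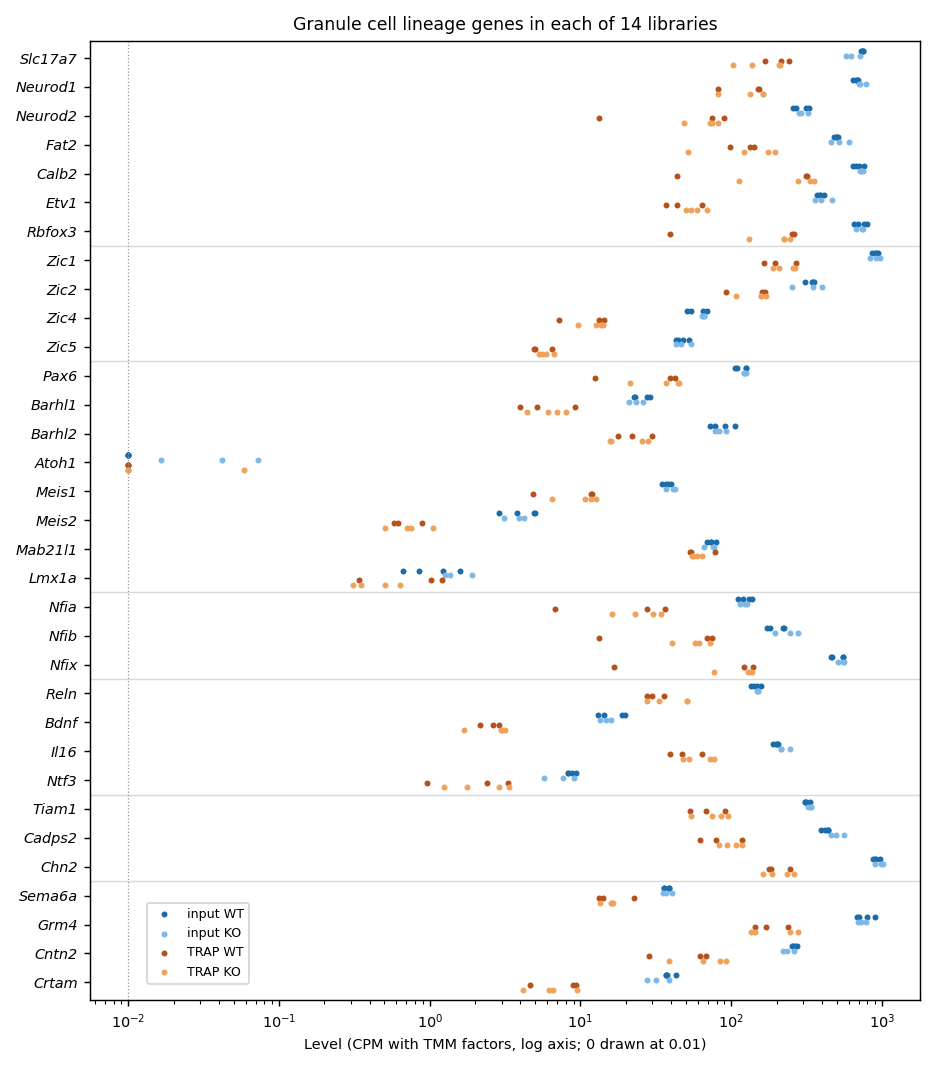
Level of each granule cell lineage gene in each of the 14 libraries, in CPM with TMM factors on a log axis, with 1 point for each library and colour giving the group; genes are grouped by role and values of 0 are drawn at the dotted line. Input libraries lie to the right of TRAP libraries for nearly all genes, the exceptions being Mab21l1, Lmx1a and Atoh1, and single TRAP libraries lie far to the left for genes such as Nfix, Calb2 and Rbfox3.

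The first comparison asks how far the purification removed the transcripts of the granule lineage. In WT, 30 of 32 members tested fell in TRAP relative to input and 0 rose. In KO, 32 of 32 fell. The genes were tested among all 16042 genes that passed the filter, with edgeR's quasi-likelihood test and Benjamini-Hochberg adjustment at 0.05. In WT 38.5% of all genes tested were lower and 37.0% higher, and in KO 39.6% were lower and 36.3% higher. All input libraries lay above all TRAP libraries for 30 of 32 members in WT, against 38.2% of all genes, and for 32 of 32 in KO, against 40.2%. The median log2 fold change of the members, TRAP over input, was -2.13 in WT and -1.96 in KO, against -0.09 and -0.11 for all genes tested. The median member thus kept 22.9% of its input level in TRAP in WT and 25.7% in KO. These ratios compare the RNA pulled down with that of the input. They do not measure the number of granule neurons or their RNA per cell.

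The scale of these fold changes depends on the normalization, while the direction did not. With library totals in place of TMM factors the all-gene median shifted by -0.82 for WT and by -0.73 for KO, and all 32 members were lower in both genotypes. Relative to the median of all genes, the members stood at -2.04 with either scaling in WT and at -1.85 with TMM factors and -1.84 with library totals in KO. On that scaling 9801 genes were lower and 3135 higher in WT, and 9670 lower and 3132 higher in KO, where TMM factors gave 6181 lower and 5937 higher in WT and 6359 lower and 5817 higher in KO. Without TRAP WT replicate 3 and TRAP KO replicate 4, 31 of 32 members were lower in WT and 32 of 32 in KO, and the medians of the members were -1.99 and -1.84. The libraries of the 2 fractions were then apart for 31 and 32 members. By role, the one count that changed was that of the rhombic lip regulators in WT, from 5 to 6 of 7, through Mab21l1.

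**Figure D2:**
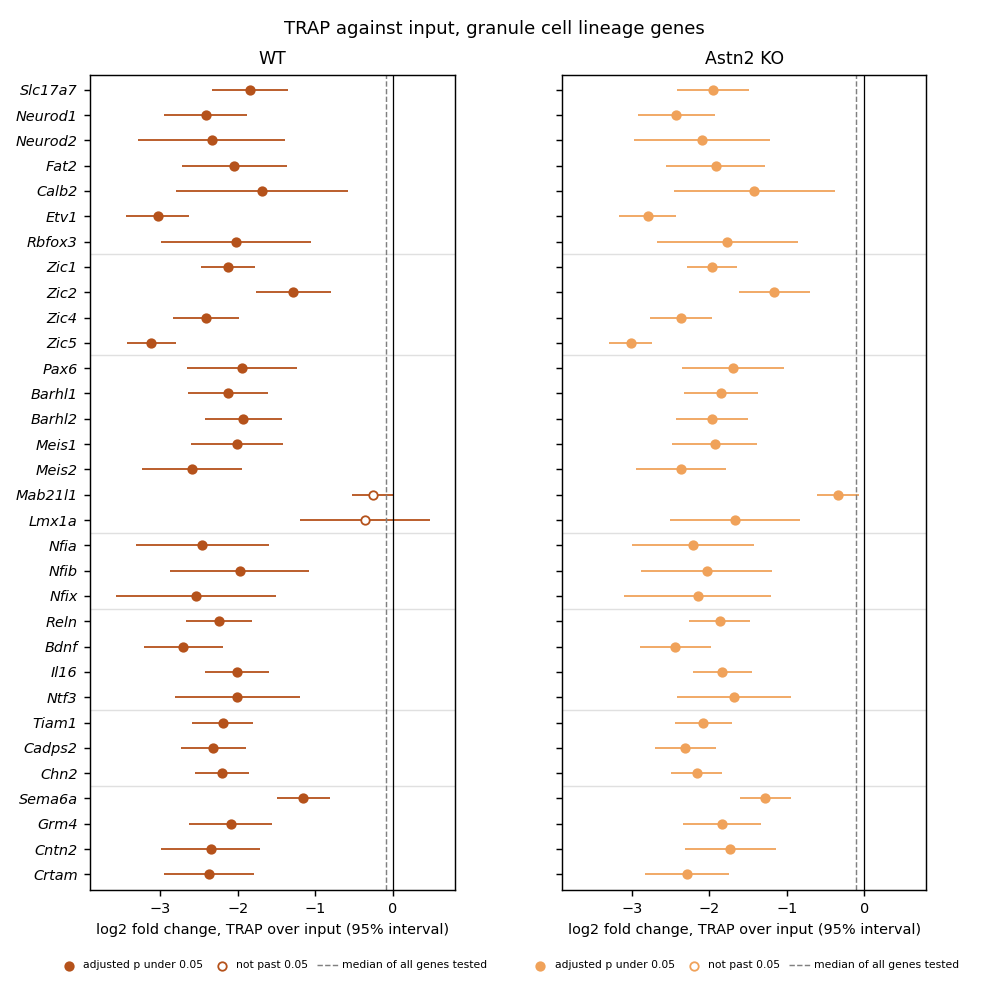
Log2 fold change of each tested granule cell lineage gene, TRAP over input, with its 95% interval, in WT (left) and KO (right); filled points are past 0.05 after adjustment in the quasi-likelihood test of edgeR, the dashed line is the median of all genes tested and the solid line is 0. Nearly all points lie between -3.11 and -1.15, and Mab21l1 in both genotypes and Lmx1a in WT lie near 0.

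The post-mitotic granule neuron genes fell together, 7 of 7 in both genotypes, and their median was -2.04 for WT and -1.95 for KO on the log2 scale. Slc17a7 encodes the vesicular glutamate transporter that fills synaptic vesicles in parallel fibre terminals. Its level was 745, 730, 748 and 733 CPM in input WT and 213, 167 and 243 CPM in TRAP WT. Every TRAP library lay below every input library, and the log2 fold change was -1.84 ± 0.23 (SE; adjusted p = 5.51e-06 by edgeR's quasi-likelihood test). Neurod1, a basic helix-loop-helix factor that drives granule neuron differentiation, was at 153, 150 and 81.4 CPM in TRAP WT and at 132, 163, 164 and 82.3 CPM in TRAP KO. All 7 TRAP values were below the lowest input value, 644 CPM, and replicate 3 of WT and replicate 4 of KO were the low libraries. Its log2 fold change was -2.41 ± 0.25 (SE) in WT and -2.43 ± 0.23 (SE) in KO.

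Etv1, an ETS-domain factor of maturing granule neurons, fell furthest of this group. It was at 63.9, 44.0 and 37.1 CPM in TRAP WT and at 50.1, 69.4, 54.1 and 58.9 CPM in TRAP KO, so that every TRAP library was far below the lowest input library (359 CPM). The log2 fold change was -3.03 ± 0.19 (SE) in WT and -2.80 ± 0.17 (SE) in KO, a residual level of 12.2% and 14.4%. Fat2, a giant cadherin carried on granule cell axons, was at 141, 97.7 and 134 CPM in TRAP WT and 122, 196, 174 and 52.0 CPM in TRAP KO, and no TRAP library overlapped with input. It fell by 2.04 ± 0.32 (SE) on the log2 scale in WT and by 1.92 ± 0.30 (SE) in KO. Calb2 was least depleted of the group and least certain: it was at 312, 317 and 43.8 CPM in TRAP WT, and its log2 fold change of -1.69 ± 0.51 (SE; adjusted p = 0.0087 by edgeR) became -1.19 without TRAP WT replicate 3. In KO its value of -1.42 ± 0.48 (SE) was no longer called without input KO replicate 3 (-1.26, adjusted p = 0.0756 by edgeR). Neurod2, a relative of Neurod1, was at 74.5, 89.8 and 13.4 CPM in TRAP WT, and Rbfox3 was at 252, 262 and 39.3 CPM, each with replicate 3 far below. Neurod2 and Rbfox3, the splicing factor known as the antigen NeuN, fell by 2.34 ± 0.44 (SE) and 2.02 ± 0.45 (SE) in WT.

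The 250 bases before the RefSeq transcription starts of members (GRCm38.p6) were searched on both strands for motifs of factors that are themselves members. Shared regulation of the members was not tested. The E-box CAGATG, bound by factors of the NeuroD and Atoh1 class, was present in 20.0% of the 45 windows that belong to 26 members, against 14.4% of 32851 windows of the same length over all genes. The E-box CAGCTG was present in 15.6% of member windows and 13% of all windows. The palindrome of nuclear factor I, TTGGC and GCCAA with 5 bases between them, was present in 0 of the 45 member windows and 0.037% of all windows. No match in a member window overlapped a match of another motif, and a match is a description of letters, not of binding. The windows of 3 genes of the post-mitotic group are shown, 5′ to 3′ on the strand of the gene, because they hold at most 3 annotated exon bases. For Slc17a7 the bases that follow the window were not found near the start of a GENCODE M21 transcript of the gene. For Neurod2 and Etv1 they were. Capitals mark the E-box CAGATG, found, among these 3 windows, in that of Neurod2.
Slc17a7, chr7:45163671-45163920, plus strand: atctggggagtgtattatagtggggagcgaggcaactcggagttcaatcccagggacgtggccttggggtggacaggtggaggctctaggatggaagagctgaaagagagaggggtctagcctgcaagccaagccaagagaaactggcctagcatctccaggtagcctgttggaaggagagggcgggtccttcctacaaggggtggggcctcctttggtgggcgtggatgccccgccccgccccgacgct
Neurod2, chr11:98329646-98329895, minus strand: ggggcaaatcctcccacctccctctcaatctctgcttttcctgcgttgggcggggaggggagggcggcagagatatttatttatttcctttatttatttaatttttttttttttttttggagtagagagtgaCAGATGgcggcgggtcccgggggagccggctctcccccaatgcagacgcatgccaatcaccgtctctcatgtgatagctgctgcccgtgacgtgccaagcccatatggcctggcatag
Etv1, chr12:38779832-38780081, plus strand: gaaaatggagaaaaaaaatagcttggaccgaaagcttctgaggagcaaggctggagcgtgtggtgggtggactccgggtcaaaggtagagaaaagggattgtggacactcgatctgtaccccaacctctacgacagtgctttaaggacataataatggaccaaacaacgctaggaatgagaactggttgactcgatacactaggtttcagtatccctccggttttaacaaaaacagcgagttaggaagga

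The Zic genes encode zinc finger factors that persist in mature granule neurons, and all 4 fell in both genotypes. Zic1 was at 937, 919, 863 and 895 CPM in input WT and 267, 196 and 166 CPM in TRAP WT. Its input and TRAP libraries did not overlap, and the log2 fold change was -2.13 ± 0.16 (SE). Its neighbour Zic4 was at 69.0, 65.5, 54.0 and 51.3 CPM in input WT and 14.2, 13.2 and 7.22 CPM in TRAP WT, and fell by 2.41 ± 0.20 (SE). Zic5 had the lowest fold change of the whole list, -3.11 ± 0.14 (SE; adjusted p = 5.22e-10 by edgeR's quasi-likelihood test) in WT and -3.02 ± 0.13 (SE) in KO. It was at 52.7, 47.5, 42.8 and 44.5 CPM in input WT and between 4.94 and 6.495 CPM in TRAP WT. Zic2, its neighbour on chromosome 14, was among the least depleted members, at 311, 344, 355 and 351 CPM in input WT and 161, 166 and 92.8 CPM in TRAP WT. Its log2 fold change was -1.28 ± 0.22 (SE) in WT and -1.17 ± 0.21 (SE) in KO.

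Zic2 and Zic5 lie head to head on opposite strands with annotated starts 9758 bases apart in GENCODE M21. The ratio of their CPM was 5.89 to 8.30 in the 7 input libraries and 18.2 to 33.2 in the 7 TRAP libraries, so the ranges did not overlap. The other neighbouring pair, Zic1 and Zic4 on chromosome 9, had ratios of 12.6 to 17.5 in input and 14.8 to 23.0 in TRAP, and these ranges overlapped. The pairs were compared after their values were seen, and no test was made of either ratio. Exons of Zic1 and Zic4 share 60 bases on opposite strands, and the sources used here do not say whether counting used strand.

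The other transcription regulators of the rhombic lip and its derivatives had 7 tested members, of which 5 fell in WT and 7 in KO. Pax6, a paired-box factor of granule progenitors and neurons, was at 126, 125, 106 and 109 CPM in input WT and 42.5, 39.3 and 12.6 CPM in TRAP WT, a log2 fold change of -1.94 ± 0.33 (SE). The homeobox genes Barhl1 and Barhl2, which act downstream of Atoh1, had log2 fold changes of -2.13 ± 0.24 (SE) and -1.93 ± 0.23 (SE) in WT. Barhl2, the more abundant, was at 106, 91.5, 77.5 and 72.1 CPM in input WT and 29.7, 21.9 and 17.8 CPM in TRAP WT. Meis1, a homeobox cofactor of granule cells, fell by 2.01 ± 0.27 (SE), and its paralogue Meis2, at only 2.88 to 5.02 CPM in input WT, fell by 2.59 ± 0.30 (SE). These 5 genes had no overlap between input and TRAP libraries in either genotype.

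Mab21l1, a developmental gene expressed in cerebellar neurons, had the smallest WT fold change of the list. It was at 73.8, 73.9, 78.8 and 68.8 CPM in input WT and 54.2, 53.2 and 77.8 CPM in TRAP WT, and the groups overlapped through TRAP WT replicate 3. The log2 fold change was -0.25 ± 0.13 (SE; adjusted p = 0.0859 by edgeR) in WT and -0.34 ± 0.13 (SE; adjusted p = 0.0249) in KO, a residual level of 84.0% and 79.0%. Without TRAP WT replicate 3 the WT value was -0.48 with an adjusted p of 0.000487, and it was also called, at -0.46, when only genes with a mean count of at least 50 were fitted. In KO the call was lost without input KO replicate 1, input KO replicate 3 or TRAP KO replicate 3, with values from -0.34 to -0.29. Mab21l1 (chromosome 3, 55782510 to 55785287, GRCm38) shares 981 of its 2492 exon bases with the gene Nbea on the opposite strand. The log2 fold change of Nbea was 0.02 ± 0.18 (SE) in WT and -0.37 ± 0.18 (SE) in KO, neither past the threshold in edgeR's test, and how much Nbea adds to the counts of Mab21l1 was not tested.

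Lmx1a, a LIM-homeobox factor of the rhombic lip that marks unipolar brush cells, was measured from 6 to 116 counts in a library. It was at 1.23, 1.59, 0.665 and 0.851 CPM in input WT and at 1.03, 0.338 and 1.203 CPM in TRAP WT, and the groups overlapped. In KO it was at 1.35, 1.90 and 1.27 CPM in input and 0.507, 0.632, 0.352 and 0.310 CPM in TRAP, and the groups were apart. The log2 fold change was -0.36 ± 0.39 (SE; adjusted p = 0.418 by edgeR) in WT and -1.67 ± 0.39 (SE; adjusted p = 0.00147) in KO. Eomes, a second marker of unipolar brush cells and no member of the list, fell by 1.73 in WT and 1.60 in KO.

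The nuclear factor I genes Nfia, Nfib and Nfix, which switch on late genes in maturing granule neurons, fell in both genotypes. Nfix was at 552, 549, 463 and 462 CPM in input WT and at 139, 121 and 16.7 CPM in TRAP WT. The third library of TRAP WT was thus far below the others, and the log2 fold change of -2.54 ± 0.48 (SE) became -2.04 without it. Nfia fell by 2.46 ± 0.40 (SE) and Nfib by 1.97 ± 0.42 (SE) in WT. Without that library these were -2.03 and -1.52, and all 3 stayed past the threshold.

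Among genes for secreted proteins, 4 of 4 fell in both genotypes. Reln encodes reelin, which granule cells release and which positions Purkinje cells. It was at 148, 143, 134 and 158 CPM in input WT and 36.0, 29.8 and 27.7 CPM in TRAP WT, a log2 fold change of -2.24 ± 0.20 (SE). The neurotrophin gene Bdnf was at 13.01, 14.2, 19.7 and 18.9 CPM in input WT and 2.87, 2.65 and 2.16 CPM in TRAP WT. Its log2 fold change of -2.70 ± 0.24 (SE) was the lowest of the ligands. The neurotrophin gene Ntf3 had a log2 fold change of -2.004 ± 0.37 (SE), and Il16, whose neuronal form is a scaffold protein of granule cells, fell by 2.01 ± 0.19 (SE). Il16 shares 1202 of its 7865 exon bases with Stard5 on the opposite strand, and Bdnf shares 896 of 6217 with Gm45346. In all, 11 of 33 members have such an overlap, Meis1 and Chn2 among them.

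Receptors and adaptors of ligands among the members, secreted or on the cell surface, form a list of 9 genes. They did not move as 1 group: in WT 5 fell and 3 rose, and in KO 5 fell and 2 rose. Without TRAP WT replicate 3 and TRAP KO replicate 4 these counts were 6 and 3 in WT and 5 and 3 in KO. The reelin receptor Lrp8 and the adaptor Dab1, which relays the reelin signal inside cells, rose by 1.36 and 1.05 on the log2 scale in TRAP over input in WT. Lrp8 was at 149, 146 and 490 CPM in TRAP WT, and without the high library, replicate 3, its WT value was 0.55, still past the threshold. In KO it was at 0.59 and did not pass in the fit of all 14 libraries, but passed at 0.62 without TRAP WT replicate 3, so the calls of Lrp8 in WT and KO are not shown to differ. Dab1 rose by 0.85 in KO. The second reelin receptor, Vldlr, was at 0.08 in WT and did not pass, and it was at -0.47 and past the threshold without TRAP WT replicate 3. Ngfr, a receptor for neurotrophins, was at 5.33, 12.5 and 23.0 CPM in TRAP WT and rose by 3.37, or by 2.79 without replicate 3, and by 2.72 in KO. Ntrk2, the BDNF receptor, fell by 2.36, and Ntrk3, the receptor for the Ntf3 product, fell by 1.36 in WT. Plxna2, Plxna4 and Cadm1 fell by 3.07, 1.02 and 2.18 in WT. These rises are stated on the TMM scale: with library totals Lrp8 was at 0.53 and Dab1 at 0.23 in WT, and neither passed. In KO Dab1 was at 0.11 on that scaling and did not pass.

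The 3 genes of signalling and release fell in both genotypes. Tiam1, a Rac activator, was at 312, 308, 309 and 331 CPM in input WT and 90.6, 68.0 and 53.4 CPM in TRAP WT. Its log2 fold change was -2.19 ± 0.18 (SE). Cadps2, which promotes release of dense-core vesicles holding neurotrophins, was at 436, 437, 393 and 422 CPM in input WT and 118, 78.8 and 61.8 CPM in TRAP WT, and fell by 2.32 ± 0.20 (SE). Chn2 was at 976, 902, 910 and 876 CPM in input WT and 246, 179 and 183 CPM in TRAP WT, and fell by 2.20 ± 0.16 (SE). The values in KO were -2.08, -2.31 and -2.17. Among surface proteins, the adhesion molecule Cntn2 of newly post-mitotic granule cells fell by 2.35 ± 0.29 (SE), the parallel fibre glutamate receptor gene Grm4 by 2.09 ± 0.25 (SE), and Crtam, an adhesion molecule that binds the Cadm1 product, by 2.37 ± 0.27 (SE) in WT. Sema6a, a semaphorin that guides granule cell migration through plexin A2, fell least of them. It was at 36.0, 38.4, 35.9 and 38.6 CPM in input WT and 13.2, 14.1 and 22.6 CPM in TRAP WT. Its log2 fold change was -1.15 ± 0.16 (SE) in WT and -1.28 ± 0.15 (SE) in KO.

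Granule cell genes that are not in the list moved the same way. All 7 of a second list fell in both genotypes, with a median of -1.80 in WT and -1.68 in KO; among them Gabra6, the granule cell GABA-A receptor subunit, fell by 2.46 and Gabrd, the subunit of tonic inhibition, by 1.79 in WT. Of the other cell types, the 6 oligodendrocyte genes (median -2.11 in WT), 4 microglia genes (-2.03) and 7 genes of Bergmann glia and astrocytes (-1.72) all fell in both genotypes. The 4 endothelial genes (-1.76) fell in WT, with 2 to 4 called over the alternatives. In KO 2 of 4 endothelial genes fell, with a median of -1.13. Other lists did not move in 1 direction in WT: 6 of 8 interneuron genes fell and 2 rose, 3 of 4 meningeal genes fell and 1 rose, and of 5 choroid plexus genes 0 fell and 1 rose. In KO 6 interneuron genes fell and 1 rose, and 2 meningeal genes fell and 1 rose. Of the choroid plexus genes 4 fell and 1 rose in KO, with 1 to 5 called over the alternatives. The 11 Purkinje cell genes had a median of 2.75. The source of the RNA of the members in TRAP, a median of 22.9% of the input level, was not tested.

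The list of the hedgehog pathway, through which Purkinje cells drive granule progenitors to divide, held genes that moved both ways. Shh, the ligand, rose by 3.37 on the log2 scale in WT and 3.16 in KO. Its level was 3.64 ± 0.454 CPM before purification (input WT, SD, n = 4) and 37.7 ± 7.41 CPM after it (TRAP WT, SD, n = 3). The receptor gene Ptch1 fell by 1.56 in WT, and the target genes Gli1 and Ccnd1 by 2.04 and 2.12. In all, 8 of 13 genes of the list fell and 3 rose in WT, the others that rose being Smo (0.79) and Mycn (1.23). In KO, 9 fell and 2 rose, and Smo, at 0.21, did not pass. Smo was at 30.6, 24.7 and 50.5 CPM in TRAP WT, and without the high library, replicate 3, its WT value was 0.38 and did not pass. With library totals Smo was at -0.03 in WT and -0.53 in KO, and Mycn was at 0.11 in KO and did not pass. Without TRAP WT replicate 3 and TRAP KO replicate 4, 7 genes fell and 3 rose in WT, and 9 fell and 3 rose in KO. The proliferation genes Mki67 and Top2a did not pass in WT, at -1.44 and -1.503, but passed, at -2.22 and -2.28, without TRAP WT replicate 2. Without TRAP WT replicate 3 they were at -1.31 and -0.70 and did not pass. In KO Mki67 passed at -1.58, but not without input KO replicate 1 (-1.15) or TRAP KO replicate 4 (-1.34), among others. Top2a did not pass in KO, at -1.09, but passed, at -1.15, without TRAP WT replicate 3.

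Most members were low in the 2 TRAP libraries that stood apart, by unequal amounts. For 29 members the mean TRAP count was at least 50. In TRAP WT replicate 3, 25 of these 29 were below the mean of the other TRAP WT libraries on the log2 scale. The median deviation of the 29 was -0.64, against 0.04 for all genes. Among the 29, 9 were more than 1 log2 unit below that mean in replicate 3, which is 31.0%, against 7.11% of 11697 genes. These 9 were Nfix (-2.92), Calb2 (-2.83), Rbfox3 (-2.69), Neurod2 (-2.57), Nfib (-2.40), Nfia (-2.14), Pax6 (-1.66), Meis1 (-1.22) and Cntn2 (-1.18). The 4 members above the mean of the other libraries were Slc17a7 (0.37), Fat2 (0.19), Mab21l1 (0.53) and Sema6a (0.71). Crtam (-0.90), Neurod1 (-0.89) and Zic4 (-0.88) were among those in between. The 3 nuclear factor I genes summed to 36.7 CPM in that library and to at most 236 CPM in TRAP WT. In TRAP KO replicate 4, 3 of the 29 members were more than 1 unit below the mean of the other TRAP KO libraries. These were Fat2 (-1.62), Calb2 (-1.50) and Cntn2 (-1.03), or 10.3% against 1.39% of all genes. In all, 26 of 29 were below that mean. The median deviation of the 29 was -0.65, against 0.01 for all genes.

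The deviations of the 2 libraries were related across the 29 members with a Spearman rho of 0.484, a description over genes that share library and depth. Deviations in TRAP WT replicate 3 had a rho of -0.123 with the GC content and 0.028 with the length of the transcript. The members below -1 had a median GC content of 53.5% and the other 20 a median of 49.3%. Leaving out TRAP WT replicate 2, which was not low, gives the low replicate 3 more weight in TRAP WT. It moved the WT folds by more than 1.5 times for 5 of the 9. The log2 fold changes, TRAP over input, were then -3.21 for Nfia, -3.06 for Neurod2, -2.67 for Rbfox3, -2.60 for Nfib and -2.34 for Calb2. Nothing in the labels sets any of these libraries apart.

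**Figure D3:**
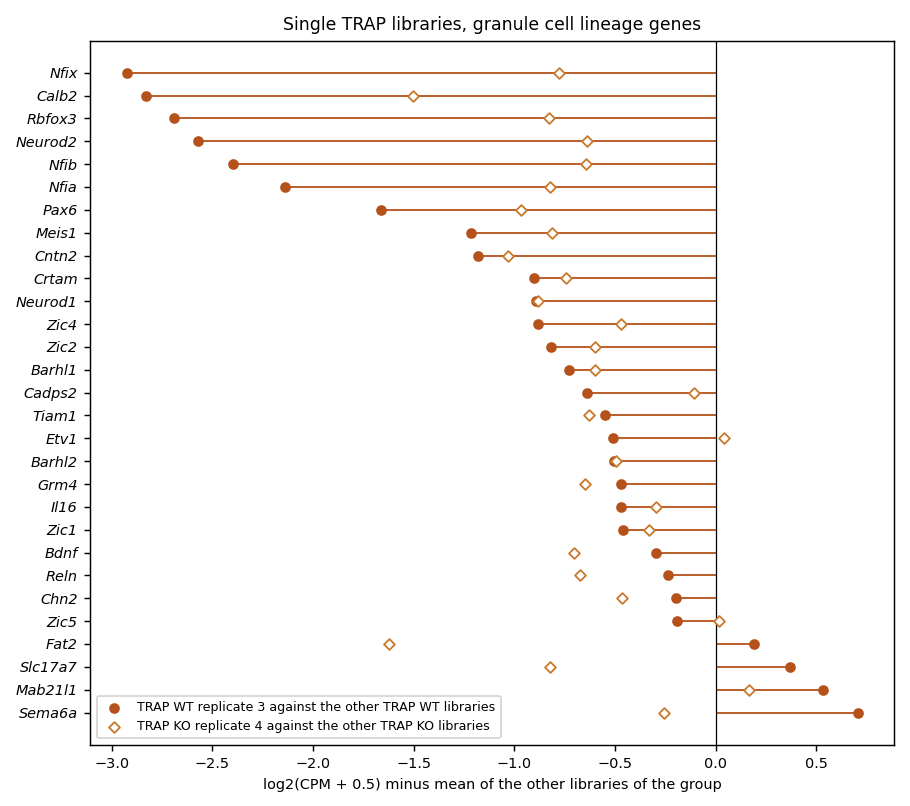
Deviation of 2 TRAP libraries from the mean of the other libraries of their group, in log2(CPM + 0.5), for the 29 granule cell lineage genes with a mean TRAP count of at least 50, sorted by TRAP WT replicate 3 (filled circles); open diamonds are TRAP KO replicate 4. Replicate 3 of TRAP WT runs from -2.92 for Nfix to 0.71 for Sema6a, while Fat2, near 0 in that library, is at -1.62 in TRAP KO replicate 4.

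The second comparison asks whether loss of Astn2 changed the granule lineage in whole cerebellum. In such bulk RNA, fewer cells of a type and less RNA per cell cannot be told apart. By edgeR's quasi-likelihood test 0 of 32 members passed an adjusted p of 0.05 among 15997 genes tested, of which 0.0188% passed. At an unadjusted p under 0.05 there were 6 members, or 18.8%, against a background of 13.7% of all genes. The DESeq2 Wald test called 1, Cadps2. The median log2 fold change of the members, KO over WT, was 0.01, against -0.01 for all genes, with a range from -0.33 to 0.33, and 19 of 32 were above 0. The standard errors had a median of 0.08, and for 27 of 32 members the 95% interval lay within 0.5 log2 units of 0, so that larger changes of these 27 genes lie outside the intervals.

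In 4 members, 12.5%, the KO and WT input libraries did not overlap, against 10.4% of all genes, so the share was near the background. Cadps2 was at 495, 458 and 564 CPM in input KO and 436, 437, 393 and 422 CPM in input WT. Every KO library was above every WT library, with a log2 fold change of 0.28 ± 0.08 (SE; adjusted p = 0.228 by edgeR, 0.0495 by the DESeq2 Wald test). Over the 15 alternatives its adjusted p ranged from 0.0495 to 1.00. Slc17a7 was at 576, 719 and 623 CPM in KO and 745, 730, 748 and 733 CPM in WT, with no overlap between genotypes. The log2 fold change of Slc17a7 was -0.24 ± 0.08 (SE; adjusted p = 0.278 by edgeR, 0.0698 to 1.00 over the alternatives).

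Il16 was at 215, 213 and 244 CPM in input KO and 202, 199, 191 and 206 CPM in input WT, a log2 fold change of 0.18 ± 0.07 (SE; adjusted p = 0.295 by edgeR). Neurod1 was at 704, 713 and 786 CPM in input KO, all above the 644 to 693 CPM of WT, a log2 fold change of 0.14 ± 0.06 (SE; adjusted p = 0.358 by edgeR). None of the 4 passed, and the fold changes did not share a sign: the transcription factor, the release factor and the scaffold were higher in KO and the vesicular transporter lower. The other 2 members with an unadjusted p under 0.05 in edgeR's test were surface protein genes, whose KO and WT libraries overlapped. Of the 4 surface protein genes, 3 were below 0 in input KO. Their median was -0.18 and their lowest value, -0.33, was the lowest of the list. The adjusted p of Il16 over the alternatives was 0.141 to 1.00 and that of Neurod1 0.247 to 1.00.

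The granule cell genes outside the list had 6 of 7 values below 0 in input KO, with a median of -0.24, and 0 passed by edgeR, but 1 did without input KO replicate 2 and 1 by the DESeq2 Wald test. Of these 7, 5 had an unadjusted p under 0.05. Grin2c, the glutamate receptor subunit of mature granule neurons, was lowest at -0.48 (adjusted p = 0.101 by edgeR), with Gabrd at -0.22, Cbln1 at -0.26 and Gabra6 at 0.03. Markers of other cell types moved beside these values: 4 of 4 endothelial genes were below 0, summing to 10.2 to 16.0 CPM in KO and 16.5 to 22.4 CPM in WT, and 9 of 11 Purkinje cell genes were above 0. The choroid plexus genes summed to 10.3 to 1161 CPM in input KO and 11.8 to 397 CPM in input WT, led by Ttr at 1079 CPM in input KO replicate 2. The part of these differences in the values of the granule cell genes was not tested.

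**Figure D4:**
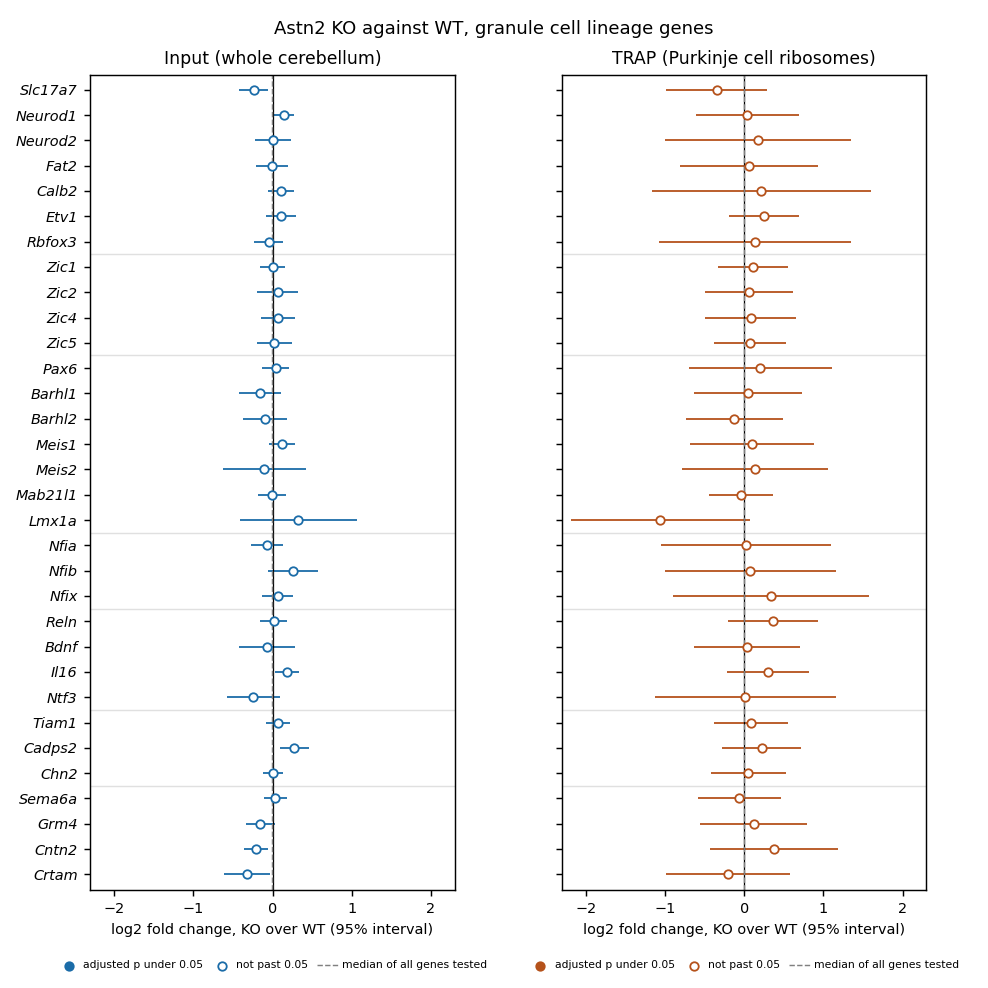
Log2 fold change of each tested granule cell lineage gene, KO over WT, with its 95% interval, in input (left) and TRAP (right); open points are not past 0.05 after adjustment in the quasi-likelihood test of edgeR, the dashed line is the median of all genes tested and the solid line is 0. All points are open, the input values lie between -0.33 and 0.33, and the TRAP intervals are several times wider, with Lmx1a lowest at -1.06.

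In TRAP, 0 of 32 members differed between genotypes by edgeR's quasi-likelihood test or by the DESeq2 Wald test. Of 14145 genes tested, 0.00707% passed in edgeR. At an unadjusted p under 0.05 there were 0 members, against 1.50% of all genes (212 genes), and in 0 members were the KO and WT libraries apart, against 4.49%. The median log2 fold change was 0.08, against 0.002 for all genes, and 26 of 32 members were above 0. Thus 18.8% of members were below 0, against 49.7% of all genes. Without TRAP WT replicate 3 and TRAP KO replicate 4 the median was 0.03 and 20 of 32 were above 0, still with 0 called. The median standard error was 0.29, and 1 member had a 95% interval within 0.5 log2 units of 0, so changes of that size in most members were not detectable here. In the same contrast the choroid plexus genes Ttr and Kl were at -4.14 and -1.15 without passing.

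The lowest value, that of Lmx1a, was -1.06 ± 0.50 (SE), with a 95% interval from -2.19 to 0.07 and an adjusted p of 1.00 by edgeR; it was singled out after its value was seen. The highest, that of Cntn2, was 0.37 ± 0.35 (SE). Cntn2 was at 68.4, 62.0 and 28.4 CPM in TRAP WT and 65.0, 83.8, 92.4 and 38.6 CPM in TRAP KO. The groups overlapped, and the lowest library of each group was the one that stood apart.

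The third comparison asks whether depletion differed between genotypes. The interaction of genotype and fraction called 0 of 32 members by edgeR's quasi-likelihood test and 0 by the DESeq2 Wald test, and 0% of 16042 genes passed in edgeR. At an unadjusted p under 0.05 there was 1 member, Lmx1a, or 3.12% against 2.68% of all genes. Its interaction was -1.32 ± 0.56 (SE) on the log2 scale, unadjusted p = 0.0335 and adjusted p = 0.999 in edgeR's model over all genes. Its call in KO but not in WT is therefore not shown to be a difference between genotypes. The median interaction of the members was 0.14, and 0.05 without the 2 TRAP libraries that stood apart, against -0.02 and 0.01 for all genes.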

How the data were processed

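The authors deposited a table of whole-number counts, with genes in rows and the 14 libraries in columns, and the values are not normalized. The submitters' processing notes name Salmon 0.8.2 and the build mm10 with no role; the counting settings and strand use are not given in the sources used here. Entrez numbers were matched to symbols through the RefSeq table of GRCm38.p6 (24045 of 24100). Transcript lengths and exon overlaps came from GENCODE M21.

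Genotype was tested within each fraction, and TRAP against input and the interaction in all 14 libraries, with sex as covariate, by edgeR 4.0.16 (glmQLFit and glmQLFTest, R 4.3.3, two-sided) with TMM factors, filterByExpr by group and Benjamini-Hochberg adjustment over all genes tested. Standard errors are the log2 fold change divided by the root of F. Library totals of 18.8 to 54.2 M counts set a floor of 3 counts, or 0.0438 to 0.205 CPM; floors cover counting error only. The scripts were tested on simulated data.

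Members and lists were chosen with earlier results of these data known. All members are named for TRAP against input; for genotype, members past 0.05 and up to 4 per direction with libraries apart; for other lists, the first 4 or those past 0.05. The values of 1 gene of the hedgehog list are not reported here; the counts of that list include it. Alternatives were DESeq2 size factors, library totals, no filter, a mean count of at least 50, DESeq2 1.42.0, no sex term, a replicate block, 1 fit of 14 libraries, each library left out and, chosen after seeing the data, TRAP WT 3 and TRAP KO 4 left out together.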

Additional observations from a re-analysis of the deposited data

Results flagged for a closer look

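Of 64 values tested for a library far from the other 3 of its group (input WT or TRAP KO, as log2(CPM + 1)), 5 were past Dixon's 95% critical value for 4 samples, and chance flags about 1 in 20 groups. TRAP KO replicate 4 was below the others for 4 genes. Nfix was at 77.4 CPM there against 129 to 137 CPM, a gap of 0.901 of the range. Bdnf was at 1.68 CPM against 2.98 to 3.17 CPM, a gap of 0.898. Rbfox3 was at 131 CPM against 225 to 247 CPM, a gap of 0.854. Zic2 was at 107 CPM against 158 to 171 CPM, a gap of 0.832. In input WT, Crtam was above the others in replicate 3, at 42.9 CPM against 36.7 to 37.4 CPM, a gap of 0.871.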

How the results depend on the processing

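No log2 fold change of the 32 members, TRAP over input, and none of the 4 named members for genotype in input changed sign under any alternative run. TRAP against input called 30 to 31 members in WT and 30 to 32 in KO when each library was left out, and 30 and 32 with the replicate block. The genotype comparisons and the interaction called 0 members under every alternative, each library left out included, except for 1 member in input with the DESeq2 Wald test, Cadps2; the cause was not tested. Same-numbered input and TRAP libraries had correlations of deviations between 0.0996 and 0.285 for WT and between -0.096 and 0.230 for KO. Differently numbered ones had correlations between -0.221 and 0.163 for WT and between -0.219 and 0.336 for KO. The highest was that of input KO replicate 3 with TRAP KO replicate 4. Input WT replicates 1, 2 and 3 and input KO replicates 1 and 2 each had their highest correlation with the TRAP library of the same number. Seen from TRAP WT replicate 3, input WT replicate 4 (0.163) was higher than input WT replicate 3 (0.0996). The labels do not state which libraries share a lysate. The main fit takes the 14 libraries as unpaired, so its p-values do not account for shared lysates. For TRAP against input the replicate block joins libraries by number, input KO replicate 3 with TRAP KO replicate 3 (-0.096) included. With the replicate block 0 members were called for genotype in input, in TRAP and in the interaction. With library totals the median level over members was 272.6 CPM in input KO, 247.6 CPM in input WT and 40.3 CPM in TRAP KO, against 209.5, 188.6 and 51.6 CPM with TMM factors, since that scaling has no composition factor. In WT, library totals also called Mab21l1 (-1.07) and Lmx1a (-1.17). Over all genes, genotype in input called 3 genes, but 294 with the DESeq2 Wald test, 23 with no filter on low counts, 5 with the size factors of DESeq2, 2 without the sex term, 2 with 14 libraries in 1 fit, and 1 to 158 with a library left out, the highest without input KO replicate 2. In TRAP 1 gene was called, 3 with the DESeq2 Wald test and 2 with 14 libraries in 1 fit. Lmx1a was measured from low counts, and Atoh1, at or near the floor in every library, entered no test.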
